A study of Mus musculus with 6 samples.

Results

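The genes of the hemidesmosome and of laminin-332, the matrix protein it anchors to, were examined in RNA of cells sorted as hair follicle stem cells (HFSCs) from mouse dorsal skin. The 9 genes were chosen by name, as the rows of the deposited count table named Col17a1, Itgb4, Dst, Plec, Cd151, Lama3, Lamb3, Itga3 and Itgb1. They were 9 of 56941 genes in the table, and all 9 passed the filter on low counts. The HFSCs were sorted by the authors as CD34+/α6-integrin+ cells from female mice at PD68, and total RNA was sequenced as 3 biological replicates per genotype. Mice of both genotypes carried floxed Dab2 alleles (Dab2 fl/fl, strain B6;129S4-Dab2tm1Cpr/J) and received tamoxifen at 75 mg/kg on 5 consecutive days. The group labelled Dab2-cKO carried in addition a tamoxifen-activated Cre recombinase under the K14 promoter, which is active in basal keratinocytes and not in dermal cells, and the group labelled WT carried no Cre. Whether each replicate was 1 mouse or pooled mice is not given in the sources used here.

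Hemidesmosomes are the junctions by which basal keratinocytes, including HFSCs, hold to the basement membrane. On the inner side the plakins plectin and BPAG1 bind the keratin filaments, and through the membrane run integrin α6β4 and collagen XVII. On the outer side α6β4 binds laminin-332, a trimer that holds the α3 and β3 chains and is also a ligand of integrin α3β1. Collagen XVII is known in the bulge as a factor that keeps HFSCs in place, and inherited loss of several of these proteins causes blistering of the skin.

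The 250 bases upstream of 10 RefSeq start sites (table build GRCm38.p6) were searched, which belong to 6 of the 9 genes. Promoters of Itgb4, Lama3 and Plec were not searched. Each of the 10 windows matched GRCm39 at 1 position. The bases outside any exon annotated in GENCODE are shown for Col17a1 and Dst, which rose most among the 9 genes as described below, and for Lamb3, a laminin-332 chain that rose. They are written 5′ to 3′ on the strand of the gene, with capitals marking matches, on either strand, to the TATA box, searched as TATAAA, or to the GC box, for which the letters GGGCGG were searched.
Col17a1, chr19:47680534-47680731, minus strand: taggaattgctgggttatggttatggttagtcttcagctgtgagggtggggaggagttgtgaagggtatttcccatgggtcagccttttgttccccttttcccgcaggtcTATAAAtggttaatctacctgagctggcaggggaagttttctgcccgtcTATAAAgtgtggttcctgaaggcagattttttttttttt
Dst, chr1:34050426-34050675, plus strand: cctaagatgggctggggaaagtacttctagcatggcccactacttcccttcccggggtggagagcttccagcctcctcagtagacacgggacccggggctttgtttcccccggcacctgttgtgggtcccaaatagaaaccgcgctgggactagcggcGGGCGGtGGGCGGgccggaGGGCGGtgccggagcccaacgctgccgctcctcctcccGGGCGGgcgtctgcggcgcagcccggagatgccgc
Lamb3, chr1:192984052-192984278, plus strand: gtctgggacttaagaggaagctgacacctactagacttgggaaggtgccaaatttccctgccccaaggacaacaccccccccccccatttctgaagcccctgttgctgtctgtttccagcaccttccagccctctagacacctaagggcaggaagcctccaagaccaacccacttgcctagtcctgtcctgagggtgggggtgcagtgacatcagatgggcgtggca
The Col17a1 stretch held 2 matches to TATAAA and no GC box, the Dst stretch held 4 GC boxes and no TATAAA, and the Lamb3 stretch held neither. The other Dst start site among the 10, with upstream bases at chr1:34199091-34199340, held no GC box and no TATAAA. Which Dst isoform each start site serves was not examined. Of all 32851 promoters of 250 bases in the table, 12.4% held TATAAA and 32.7% held GGGCGG. Neither TGANTCA, the AP-1 motif, which 6.75% of the promoters held, nor CTTTGA, a TCF/LEF motif held by 13.8%, was found in any of the 10 windows. The matches describe these letters only, and the start site used in HFSCs was not measured.

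The libraries held 7040032 to 11696457 counts, and the deposited counts were scaled by the TMM method of edgeR. The TMM factors of WT libraries ranged from 1.11 to 1.21 and those of Dab2-cKO libraries from 0.847 to 0.876, so directions depend on the scaling and are given below under others too. In WT, 32.6% to 33.4% of counts came from the 100 genes most abundant over the libraries, and in Dab2-cKO 43.8% to 46.0%. Mitochondrial genes took 12.99% to 14.45% in WT and 19.1% to 20.3% in Dab2-cKO, and the part of these shares in the results was not tested. The targeted gene, Dab2, ranged from 309 to 338 normalized counts in libraries labelled WT and from 1300 to 1434 in libraries labelled Dab2-cKO (log2 fold change 2.08, standard error (SE) 0.08, adjusted p = 3.04e-34 by edgeR). This goes against the label, so WT and Dab2-cKO stand here for libraries labelled in that way, and counts per gene cannot show a deleted exon. The summed normalized count of 8 fibroblast markers ranged from 103644 to 125328 in WT and from 363213 to 383179 in Dab2-cKO. That of 7 endothelial markers was 1471 to 1620 in WT and 5070 to 5190 in Dab2-cKO, that of 8 immune markers 1970 to 2131 and 8769 to 8952, and that of 6 skeletal muscle markers 54212 to 63148 and 254835 to 257671. The summed count of 21 hair shaft, inner root sheath and matrix markers lay between 255540 and 306617 in WT and between 3542 and 3613 in Dab2-cKO. All 21 were lower, as were all 7 melanocyte markers (sums of 3556 to 3918 in WT and 1252 to 1284 in Dab2-cKO). All 10 proliferation markers were lower too, with sums of 10623 to 11596 in WT and 3158 to 3256 in Dab2-cKO, and among them Mki67 was at 6162 and 1413 mean normalized counts. Of 8 markers of differentiated epidermis, 7 were higher and 1 lower, with sums of 12475 to 14438 in WT and 47182 to 47945 in Dab2-cKO, and Krt1 and Krt10 rose with log2 fold changes of 2.99 and 2.37. No marker of these lists was at or under 3 counts in every library. Of 14 HFSC bulge markers, 8 were higher and 3 lower. Among the higher, mean normalized counts in WT and Dab2-cKO were 510 and 1780 for Cd34, 3556 and 6351 for Krt15, and 230 and 575 for Nfatc1. The 3 lower were Sox9 (966 and 355), Lhx2 (348 and 129) and Lgr5 (415 and 167). All these marker calls are by edgeR at an adjusted p under 0.05. Of all genes tested, 16.8% were called higher and 11.5% lower. Among genes averaging 200 or more normalized counts these shares were 40.9% and 25.2%. Mean normalized counts of the fibroblast marker Col1a1 were 46086 in WT and 135934 in Dab2-cKO. Those of the muscle marker Myh4 were 8297 and 30808. Both lay above Krt14 (6378 and 11472) and Cd34 in both groups, so the values below cannot be credited to HFSCs alone. The part of these cell types in the results was not tested, and in bulk RNA more cells of a type cannot be told apart from more RNA per cell.

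Of the 9 genes, 7 were higher and 2 lower in the libraries labelled Dab2-cKO (edgeR's quasi-likelihood test, Benjamini-Hochberg adjusted p under 0.05 over all genes). Col17a1 and Dst doubled, Itgb1, Itgb4 and Plec rose 1.65 to 1.78 times, and Itga3 fell by 0.69 on the log2 scale. Over all 32149 genes tested, 16.8% were called higher and 11.5% lower, 28.2% in all. Among the 7261 genes averaging 200 or more normalized counts, a level that all 9 genes reached, 66.1% were called, 40.9% higher and 25.2% lower. The normalized counts of the genotypes did not overlap in any of the 9 genes, as in 38.3% of all genes tested and in 72.6% of those with at least 200. The median log2 fold change of the 9 genes was 0.72, beside -0.02 over all genes tested. Against a change of 1.5 times, Col17a1, Dst, Itgb1 and Itgb4 passed (edgeR's glmTreat), 4 of 9 genes, all higher, beside 10.4% of all genes (6.91% higher and 3.53% lower). DESeq2 called the same 7 higher and 2 lower, beside 24.7% of all genes (15% higher and 9.72% lower).

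**Figure D1:**
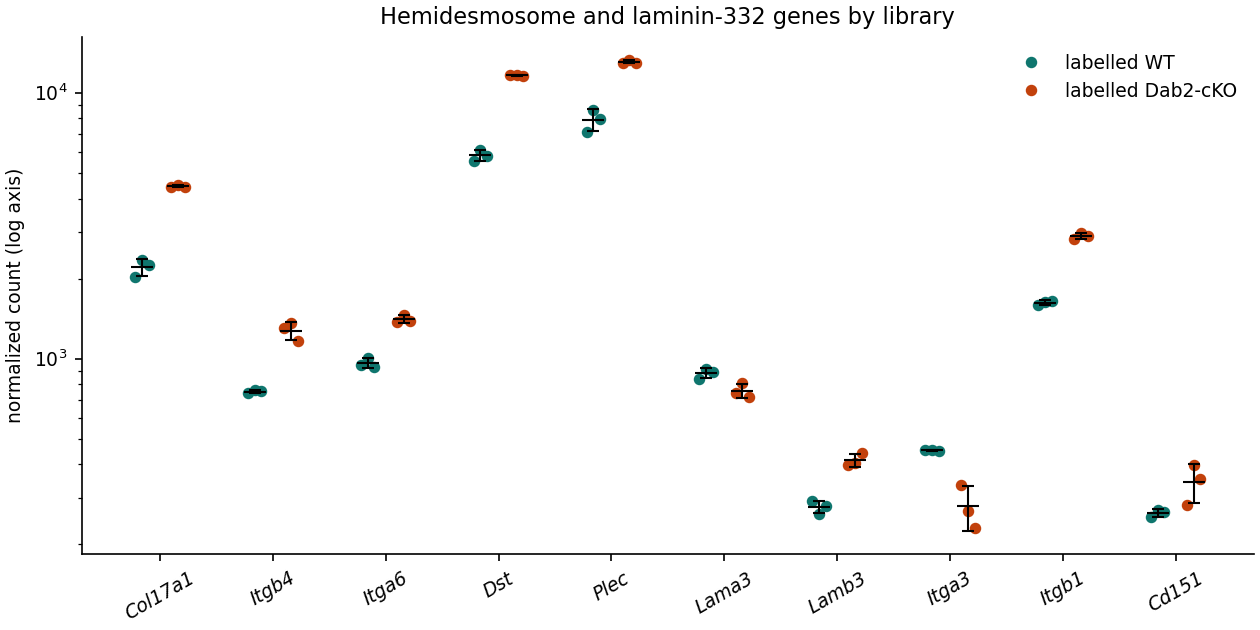
Normalized counts (log axis) of the 9 genes and of Itga6, the partner subunit of Itgb4. Points are single libraries, bars are mean ± SD (n = 3). The points of the libraries labelled Dab2-cKO lie above those labelled WT in 7 of the 9 genes, by TMM scaling, and below them in Lama3 and Itga3.

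The transmembrane components were described first. Collagen XVII, encoded by Col17a1 (ENSMUSG00000025064, GRCm39 chromosome 19, 47634783 to 47680533), had 2025, 2352 and 2241 normalized counts in WT replicates 1 to 3 and 4420, 4512 and 4428 in Dab2-cKO replicates 1 to 3. The Dab2-cKO libraries lay close together and far above all WT libraries. The fold was 2.02, with a log2 fold change of 1.01 (SE 0.07, adjusted p = 1.51e-20 by edgeR).
Integrin β4, encoded by Itgb4 (ENSMUSG00000020758, chromosome 11, 115865333 to 115899239), is found almost only in hemidesmosomes in keratinocytes. Its normalized counts were 739, 759 and 753 in WT and 1300, 1361 and 1163 in Dab2-cKO. The lowest Dab2-cKO library, replicate 3, was still well above the highest WT library. This was a log2 fold change of 0.76 (SE 0.07, adjusted p = 5.03e-14 by edgeR). Exons of Itgb4 share 17.5% of their bases with those of Galk1 and Gm73820 on the opposite strand, and the strand setting of the counting is not given in the sources used here.
Its partner Itga6, which encodes integrin α6, was one of the proteins the cells were sorted by. It had 944, 1007 and 928 normalized counts in WT and 1377, 1464 and 1385 in Dab2-cKO. Itga6 thus rose as well, with a log2 fold change of 0.55 (SE 0.07, adjusted p = 9.58e-10 by edgeR), which with library size only was 0.13 and did not pass (adjusted p = 0.0756).

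The plakins gave the highest counts of the 9 genes. Dst (ENSMUSG00000026131, chromosome 1, 33946918 to 34347742) encodes BPAG1, whose epithelial isoform sits in hemidesmosomes and whose other isoforms are made in nerve and muscle. Its normalized counts were 5553, 6090 and 5774 in WT and 11692, 11617 and 11525 in Dab2-cKO. Every Dab2-cKO library was near double the WT libraries, with a log2 fold change of 1.00 (SE 0.07, adjusted p = 2.98e-21 by edgeR). Counts per gene do not separate the 22 transcripts annotated for Dst.
Plec (ENSMUSG00000022565, chromosome 15, 76055174 to 76116774) encodes plectin, which links integrin β4 to keratin and is also made in muscle and fibroblasts. It was counted at 7133, 8625 and 7979 in WT and at 12976, 13245 and 12987 in Dab2-cKO after normalization. The WT libraries spread more widely than the Dab2-cKO libraries, and the groups were apart. The log2 fold change was 0.72 (SE 0.07, adjusted p = 1.64e-14 by edgeR). As with Dst, 22 annotated transcripts share this count.
Of the other plakins, more were called lower than higher. Of the 5 listed, 4 were in the table, 3 of which were lower (Dsp, Evpl and Macf1), and none was higher by edgeR or DESeq2, with 1 higher at an unadjusted p under 0.05. Evpl, which encodes envoplakin of the cornified envelope, fell by 0.56 on the log2 scale (SE 0.07, adjusted p = 7.77e-10 by edgeR). Macf1, the microtubule and actin linker most like Dst, fell by 0.52 (SE 0.07, adjusted p = 1.11e-09 by edgeR). The median of the 4 was -0.39. Of all genes averaging 200 or more normalized counts, 25.2% were called lower and 40.9% higher by edgeR.

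Lama3 and Lamb3, chains of laminin-332, went different ways. Lama3 (ENSMUSG00000024421, chromosome 18, 12466876 to 12717747) encodes the α3 chain, to which the integrins bind. It had 838, 915 and 889 normalized counts in WT and 743, 809 and 720 in Dab2-cKO. The Dab2-cKO libraries were lower by a small step, and the nearest libraries of the groups, WT replicate 1 and Dab2-cKO replicate 2, were close. The log2 fold change of -0.22 (SE 0.08, adjusted p = 0.0213 by edgeR) no longer passed without WT replicate 2 (-0.18, adjusted p = 0.0808), WT replicate 3 (-0.21, adjusted p = 0.111) or Dab2-cKO replicate 3 (-0.21, adjusted p = 0.0691).
Lamb3 (ENSMUSG00000026639, chromosome 1, 192890007 to 193027705) encodes the β3 chain. Its normalized counts were 291, 261 and 279 in WT and 397, 405 and 441 in Dab2-cKO, so that all Dab2-cKO libraries were above all WT libraries. The log2 fold change was 0.58 (SE 0.10, adjusted p = 1.82e-06 by edgeR) by TMM, but 0.15 by library size only, where it did not pass (adjusted p = 0.204).

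Among the genes of integrin α3β1 and its tetraspanin, the subunits also parted. Itga3 (ENSMUSG00000001507, chromosome 11, 94935296 to 94967682) encodes integrin α3, which binds laminin-332 outside hemidesmosomes. It was counted at 452, 454 and 448 in WT and at 335, 268 and 231 in Dab2-cKO after normalization. The WT libraries were nearly equal, while the Dab2-cKO libraries were lower and spread out, with replicate 1 the highest. The log2 fold change was -0.69 (SE 0.10, adjusted p = 6.63e-08 by edgeR), and it ranged from -0.87 to -0.60 with each library left out in turn.
Itgb1 (ENSMUSG00000025809, chromosome 8, 129411876 to 129460618) encodes integrin β1, the common partner of α3 and of many other α subunits in most cell types. It had 1587, 1633 and 1651 normalized counts in WT and 2809, 2965 and 2885 in Dab2-cKO. All Dab2-cKO libraries were thus far above the WT libraries, with a log2 fold change of 0.83 (SE 0.07, adjusted p = 7.61e-17 by edgeR).
Cd151 (ENSMUSG00000025510, chromosome 7, 141047256 to 141052572) encodes a tetraspanin that binds α3β1 and α6β4. Its normalized counts were 253, 270 and 265 in WT and 281, 397 and 352 in Dab2-cKO. Dab2-cKO replicate 1 was only just above the WT libraries. The log2 fold change of 0.38 (SE 0.11, adjusted p = 0.00468 by edgeR) turned to -0.04 with library size only, and it did not pass with upper-quartile scaling (0.24, adjusted p = 0.0822) or without Dab2-cKO replicate 2 (0.24, adjusted p = 0.144). Exons of Cd151 share 23.7% of their bases with those of Polr2l and Gm10575 on the opposite strand.

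Ratios of raw counts within a library do not depend on the scaling, and 6 pairs of partners were compared by an exact 2-sided permutation test, whose smallest p for 3 against 3 is 0.1. The count of Itga3 per count of Itgb1 was 0.285, 0.278 and 0.271 in WT and 0.119, 0.0904 and 0.0800 in Dab2-cKO. Its log2 ratio differed by -1.55 between the groups (WT -1.85 ± 0.04 and Dab2-cKO -3.39 ± 0.29, SD, n = 3 each, exact permutation p = 0.1, adjusted p = 0.12), the widest difference of the 6 pairs. The ratio of Lama3 to Lamb3 was 2.89, 3.51 and 3.18 in WT and 1.87, 2.00 and 1.63 in Dab2-cKO, a log2 difference of -0.80 (exact permutation p = 0.1, adjusted p = 0.12). All WT libraries thus held more α3 chain per β3 chain counts than all Dab2-cKO libraries.
Cd151 per Itga3 was 0.559, 0.594 and 0.592 in WT and 0.841, 1.48 and 1.53 in Dab2-cKO, a log2 difference of 1.09. Within the hemidesmosome the shifts were smaller. The log2 ratio of Col17a1 to Itgb4 was 0.25 higher and that of Dst to Plec 0.27 higher in Dab2-cKO, both without overlap of the groups. These 3 pairs also had an exact permutation p of 0.1, the smallest possible, and an adjusted p of 0.12. For Itgb4 over Itgb1 the groups overlapped, at 0.466, 0.465 and 0.456 in WT and 0.463, 0.459 and 0.403 in Dab2-cKO (log2 difference -0.07, exact permutation p = 0.4, adjusted p = 0.40).

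**Figure D2:**
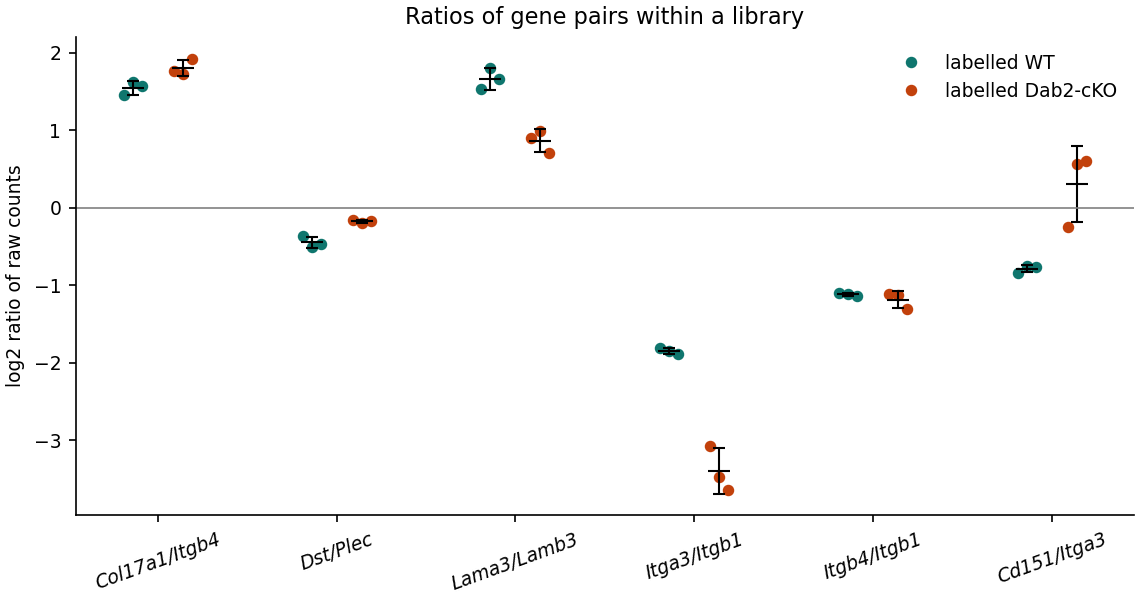
Log2 ratio of raw counts for the 6 pairs of genes, 1 point per library, with mean ± SD (n = 3). Only Itgb4/Itgb1 overlaps between the groups. Itga3/Itgb1 lies near -1.85 in WT and between -3.64 and -3.07 in Dab2-cKO.

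Basal keratinocytes carry the keratins 5 and 14, which are the filaments that hemidesmosomes hold. Krt5 had 6918 ± 522 normalized counts in WT against 10600 ± 208 in Dab2-cKO, and Krt14 had 6378 ± 420 and 11472 ± 255 (SD, n = 3 each). These are log2 fold changes of 0.62 and 0.85 (adjusted p = 5.08e-12 and 1.16e-17 by edgeR). With the libraries scaled to Krt5 and Krt14, an alternative chosen after seeing the data, 2 of the 9 genes were higher, 3 lower and 4 not called, while 62.3% of all genes were called, 5.34% higher and 57% lower, and the median of all genes was -0.75.
By that scale Col17a1 stayed higher (log2 fold change 0.28, SE 0.05, adjusted p = 5.09e-07 by edgeR) and so did Dst (0.27, standard error 0.04, adjusted p = 2.42e-08). Relative to the keratins, the log2 level of Col17a1 was -1.60, -1.59 and -1.58 in WT and -1.30, -1.32 and -1.31 in Dab2-cKO, and the libraries of a genotype differed little. Plec was at 0.21, 0.29 and 0.25 in WT and 0.26, 0.23 and 0.25 in Dab2-cKO, within the same range (log2 fold change -0.01, adjusted p = 0.904 by edgeR). Itgb4 (0.03), Itgb1 (0.10) and Lamb3 (-0.15) were likewise not called, while Itga3 (-1.42), Lama3 (-0.95) and Cd151 (-0.35) were lower.
By library size only, where the median of all genes was -0.45, Col17a1 (0.59), Dst (0.57), Itgb1 (0.40), Itgb4 (0.34) and Plec (0.30) were higher and Lama3 (-0.65) and Itga3 (-1.12) lower. Under that scaling 43.1% of all genes were called, 8.35% higher and 34.7% lower.

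**Figure D3:**
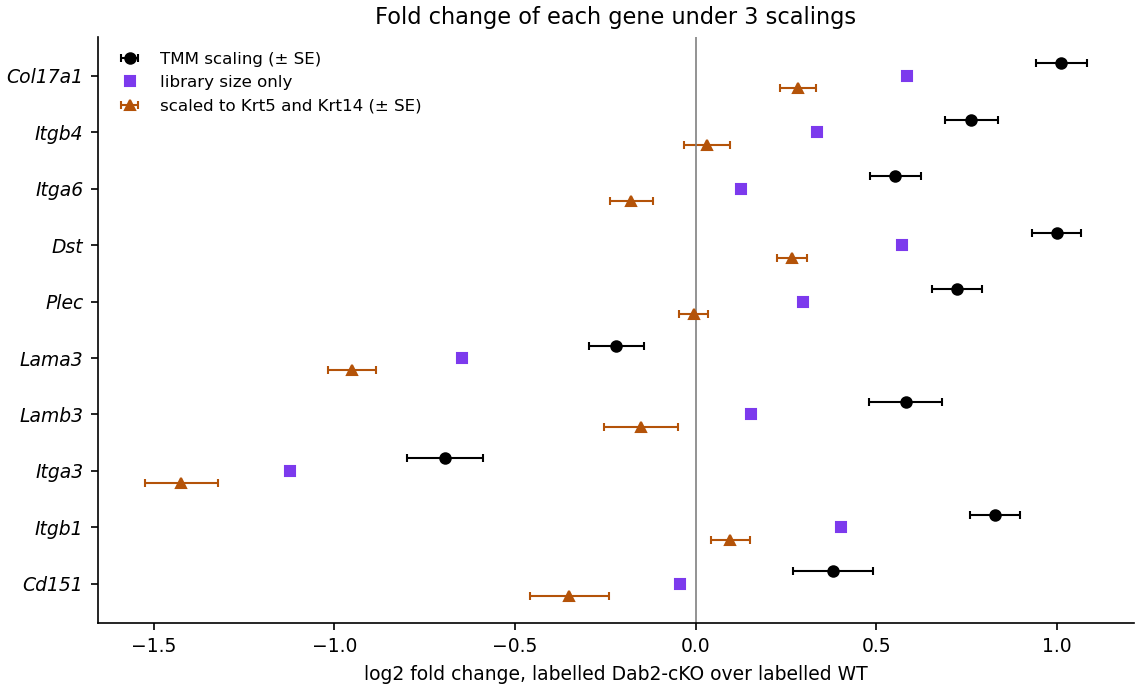
Log2 fold change of the libraries labelled Dab2-cKO over WT for each gene under 3 scalings, with bars of ± 1 standard error for TMM and for scaling to Krt5 and Krt14 (none drawn for library size only). Col17a1 and Dst are above 0 and Itga3 and Lama3 below 0 in all 3, while Plec, Lamb3 and Itga6 cross 0 with scaling to Krt5 and Krt14, and Cd151 with that and with library size only.

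Levels were compared between genes as normalized counts per kb of exon. In WT the order was Plec (437 ± 41.3), Col17a1 (367 ± 27.6), Itgb1 (272 ± 5.55), Dst (129 ± 5.99), Itgb4 (104 ± 1.41), Itga3 (77.5 ± 0.560), Lama3 (68.4 ± 3.03), Cd151 (50.5 ± 1.70) and Lamb3 (33.7 ± 1.82) (SD, n = 3). No neighbours in this order overlapped in their libraries. In Dab2-cKO, Col17a1 (741 ± 8.45) came before Plec (722 ± 8.41), and Itga3 (47.7 ± 9.05) moved to the last place, where its libraries overlapped with those of Lamb3 (50.4 ± 2.89). Cd151 (66.1 ± 11.2) and Lama3 (58.8 ± 3.59) overlapped as well. As a measure of background, the 1970 olfactory, vomeronasal and trace amine receptor genes had a median of 4.33 to 5.13 normalized counts per kb. The lowest level of the 9 genes, that of Lamb3 in WT, was above it.
The union of all annotated exons was used as the length, which for Dst is 45.1 kb against 23.2 kb for the canonical transcript. With canonical lengths Dst was at 250 and Cd151 at 88.0 per kb in WT, and Plec came first in both groups. The order and the overlaps then changed, and Itga3 (90.9) and Cd151 overlapped in WT. In Dab2-cKO, Lamb3 (74.3) came above Lama3 (61.9), which overlapped with Itga3 (56.0), still in the last place. The 9 genes together took 0.241% to 0.25% of all counts in WT and 0.313% to 0.33% in Dab2-cKO.

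Further genes of the basement membrane and of integrin adhesion were taken from lists written by function. Their calls stand beside 16.8% of all genes tested called higher and 11.5% lower by edgeR. Among genes averaging 200 or more normalized counts these shares were 40.9% and 25.2%. Among 4 other parts of the hemidesmosome and its attachment (Col7a1, Itga6, Krt5 and Krt14), 4 were higher and none lower by edgeR, by DESeq2 or at an unadjusted p under 0.05, with a median log2 fold change of 0.73. Col7a1, the collagen of the anchoring fibrils beneath laminin-332, rose from 663 ± 36.5 normalized counts to 1665 ± 73.7 (SD, n = 3 each, log2 fold change 1.33, adjusted p = 1.59e-25 by edgeR).
Of 8 other laminin chains, 4 were higher and 2 lower (median 0.43). Lama4, a chain of vessel basement membranes, rose with a log2 fold change of 1.49, and Lamb2 with 1.35. Lama5, the α chain of laminin-511 that is the other main laminin of the hair follicle, had a log2 fold change of -0.88 (edgeR, adjusted p = 3e-16), and Lamb1 fell by 0.23 (adjusted p = 0.0138). Both α chains of the main epithelial laminins, Lama3 and Lama5, were thus lower. Lamb1 did not pass without WT replicate 2 (-0.15), WT replicate 3 (-0.20) or Dab2-cKO replicate 1 (-0.17).
Of 17 other basement membrane components, 8 were higher and 2 lower (median 0.12). Col4a3 (1.17) and Nid1 (1.02), which encodes nidogen-1, had the largest rises, while Fras1 (-0.88), a part of the epithelial Fraser complex, and Bcam (-0.22), a receptor of laminin α5, fell. Bcam did not pass without WT replicate 2 (adjusted p = 0.0678), WT replicate 3 (0.145) or Dab2-cKO replicate 1 (0.0585, edgeR).

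The calls of the next lists stand beside the same shares, 16.8% higher and 11.5% lower over all genes tested. Among genes averaging 200 or more normalized counts, 40.9% were higher and 25.2% lower. Of 15 other integrin subunits, 7 were higher and 1 lower (median 0.31). The rises were led by Itga4 (1.12) and Itga5 (0.71), fibronectin receptors, and the fall was that of Itgb6 (-0.79), an epithelial subunit. Among 15 genes of the linkage from integrins to actin, 14 were tested, of which 8 were higher and 4 lower (median 0.25). Kank2 (1.22) and Fermt2 (0.98), which encodes kindlin-2, rose, while Fermt1 (-0.82), the kindlin of epithelial cells, and Actn1 (-0.83) fell.
Of 10 other tetraspanins, 7 were higher, and none was lower by edgeR or DESeq2 (2 at an unadjusted p under 0.05), with a median of 0.95. Tspan8 (1.41) and Tspan4 (1.10) rose most among those with at least 100 normalized counts. Of 11 proteases that process laminin-332 or collagen XVII, 10 were tested, of which 8 were higher and 1 lower (median 0.48). Mmp2 (1.81) and Mmp14 (1.29), which are matrix metalloproteinases, rose from 554 to 1950 and from 803 to 1973 normalized counts, and Plat fell by 0.34. Plat did not pass by DESeq2 (adjusted p = 0.0671) or without WT replicate 1 or 2 or Dab2-cKO replicate 1 or 2 (edgeR, adjusted p from 0.0743 to 0.137). These list medians are by TMM, and the median of all genes of -0.45 with library size only is larger in size than those of the laminin chain, basement membrane, plakin, integrin subunit and actin linkage lists. The fibroblast and endothelial markers given above moved in the same direction as the rises, and their part was not tested.

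**Figure D4:**
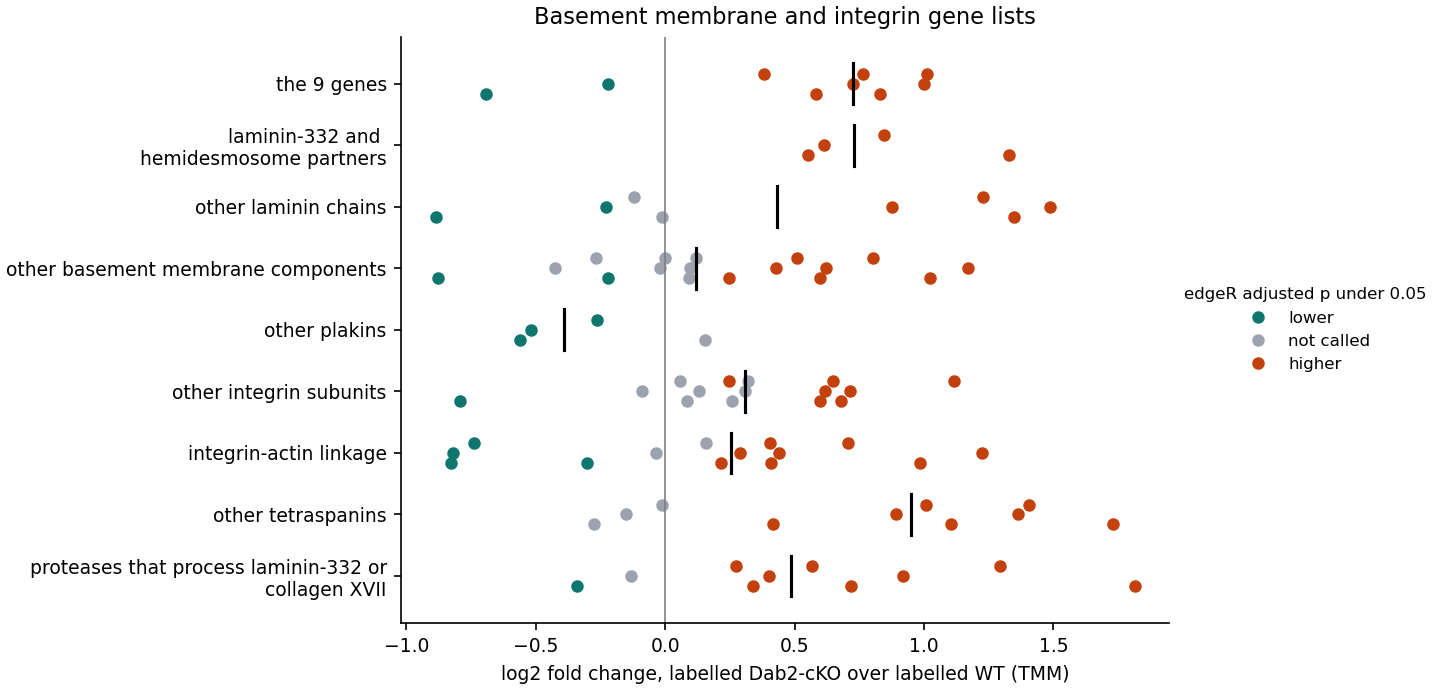
Log2 fold change (TMM, Dab2-cKO over WT as labelled) of each gene tested in the 9 genes and 8 related lists, coloured by the call of edgeR, with the median as a black line. Medians lie above 0 in all lists but the other plakins (-0.39), and Cd151, Lamb3 and Plec among the 9 genes turn below 0 under other scalings.

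The genes most like Dst, the gene with the smallest p among those higher, were sought by the root mean square distance of centred log2 normalized counts over the 6 libraries, among 3057 genes with a mean of at least 500. They were Serpinh1 (distance 0.02, log2 fold change 1.00), Sdcbp (0.03, 0.99) and Crat (0.03, 0.95). Those most like Itga3, the lower gene with the smallest p, were Sipa1l1 (0.08, -0.74), Zfand6 (0.09, -0.80) and Suco (0.11, -0.72).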

How the data were processed

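Total RNA of sorted HFSCs was sequenced by the authors as paired-end reads from SMARTer Stranded (pico input) libraries, trimmed with fastp 0.23.4, aligned to GRCm39 with HISAT2 2.2.1 and counted per gene with featureCounts 2.0.6, and the deposited counts were used without change. The strand setting, the treatment of multiply aligned reads, molecular identifiers and the annotation release are not given in the sources used here. A deposited table of the DESeq2 comparison by the authors (fold changes, p-values and scaled counts) was not used here. The columns named FL-FL were taken as Dab2-cKO from the series title and the heading of the authors' plot, and every direction depends on it.

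Genes were filtered with filterByExpr, scaled by TMM and compared over the whole table by the quasi-likelihood test of edgeR 4.0.16 with robust dispersions in R 4.3.3. The test was run on simulated data with few changed genes. These held no shift in composition like that between the groups here, so the choice of scaling was not tested by them. Each count was divided by its effective library size and multiplied by the mean effective size. The 9 genes, the lists and the tests were chosen with earlier results of these data known. The genes named were the 9, Itga6 and Dab2 (1 further gene of this rule is not reported here), and from each related list at most 2 called rises and 2 called falls averaging 100 or more normalized counts, besides Krt5, Dsp and some markers named after their values were seen. Alternatives were DESeq2 1.42.0, limma-voom 3.58.1, other scalings, other filters, a replicate block, each library left out and a test against 1.5-fold. A TMM without hair and keratin genes, scaling to Krt5 and Krt14 and canonical lengths were added after seeing the data. A count of 0 allows up to 2.56e-05% to 4.26e-05% of a library, covering counting error only. Coordinates and lengths come from GENCODE M39 (GRCm39), and promoters from RefSeq (GRCm38.p6).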

Additional observations from a re-analysis of the deposited data

How the results depend on the processing

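The direction and call of Col17a1 and Dst were kept under all 18 alternatives, with log2 fold changes from 0.28 to 1.07 and from 0.27 to 1.04. Scaling to Krt5 and Krt14 turned Plec to -0.0057, Cd151 to -0.35, Lamb3 to -0.15, Itga6 to -0.18 and Itga5 to -0.015, and library size only turned Cd151 to -0.0443. The called genes among the 9 numbered 4 against a 1.5-fold change (4 higher, 0 lower, also 0 lower at an unadjusted p under 0.05 by glmTreat, and 2 lower by DESeq2 against no change) and 5 with scaling to Krt5 and Krt14 (2 higher). With each library left out, 8 to 9 were called, 6 to 7 higher and 1 to 2 lower. Those fits called 23.7% to 25.3% of all genes tested, with 4800 to 5322 genes higher and 3091 to 3731 lower. Of all genes, 13854 were called with library size only (2686 higher, 11168 lower), 9842 with upper-quartile scaling (4281 higher, 5561 lower, median -0.17), 3358 against a 1.5-fold change and 20035 with scaling to Krt5 and Krt14 (1718 higher, 18317 lower), against 9069 by TMM (5387 higher, 3682 lower). Against a 1.5-fold change the calls fell to 2 of the hemidesmosome partners, 4 of the other basement membrane components, 0 of the other plakins (0 also at an unadjusted p), 1 of the other integrin subunits, 4 of the integrin-actin linkage and 3 of the proteases, and library size only left 5 of the proteases. With canonical lengths the WT levels per kb were 395 for Col17a1, 120 for Itgb4, 250 for Dst, 527 for Plec, 88.0 for Cd151, 72.0 for Lama3, 49.7 for Lamb3, 90.9 for Itga3 and 324 for Itgb1. The replicate numbers did not pair the libraries (correlations of same-numbered libraries 0.07, -0.01 and 0.06 over 14798 genes), and the replicate block called 9 of the 9 genes and 8967 genes in all. In the ratios the block could change no value, because the mean of paired differences equals the difference of the group means. Only the p differed (exact permutation p = 0.25, the smallest possible for 3 pairs). The log2 differences were 0.25, 0.27, -0.80, -1.55, -0.07 and 1.09 in the order Col17a1/Itgb4, Dst/Plec, Lama3/Lamb3, Itga3/Itgb1, Itgb4/Itgb1 and Cd151/Itga3. An even background of counts would make up 13.96% of Lamb3 and 9.31% of Cd151 in WT and 9.71% of Itga3 in Dab2-cKO. Such a background would draw these folds toward 0. With it subtracted, the log2 fold changes were 0.66 for Lamb3, 0.42 for Cd151 and -0.76 for Itga3, against 0.58, 0.38 and -0.69 by TMM.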
